A study of Homo sapiens with 8 samples.

Results

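The zinc finger genes of human chromosome 7 were followed in RKO cells, a colon cancer line, treated with control siRNA or A20 siRNA. They were the protein-coding genes of chromosome 7 whose symbol in GENCODE release 44 is ZNF, ZKSCAN or ZSCAN followed by a number. This gave 39 genes among the 57992 in the count files, and all 39 were present in the files. The genes were chosen by symbol and position, and the set itself was selected on the difference of ZNF138 between the groups in an earlier analysis of these counts, so that difference is described below without a test.

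Most C2H2 zinc finger genes encode DNA-binding proteins in which each finger holds a zinc ion between a pair of cysteines and a pair of histidines and reads a few bases of DNA. Many also carry a KRAB domain, which binds TRIM28 (also called KAP1), and through it SETDB1 and the HP1 proteins, to silence chromatin, above all at transposable elements. Such genes arose by tandem duplication and lie side by side in clusters, chiefly on chromosome 19, with further clusters on chromosome 7.

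The study asked how loss of A20 changes gene expression after wnt3a, the ligand of canonical wnt-signaling. A20, encoded by TNFAIP3, is a ubiquitin-editing enzyme that restrains NFkB signaling. There were 4 samples with control siRNA and 4 with A20 siRNA, and both groups received recombinant human wnt3a at 50 ng/mL for 24 hours, so no sample shows the genes without wnt3a. All samples came from this single line, and neither labels nor methods say that the 4 samples of a group were separate cultures, so p-values measure the spread between these samples, which may be technical. RNAseq gave between 21226451 and 34194273 counted reads per sample, and 3 reads corresponded to between 0.0875 and 0.141 counts per 1000000 reads (CPM). TNFAIP3 itself was lower with A20 siRNA in every sample, at 3.33 ± 0.215 CPM against 5.47 ± 0.388 CPM (mean ± SD, n = 4 each). Its log2 fold change was -0.71 (adjusted p = 0.00258, edgeR's quasi-likelihood test), and the exact two-sided permutation p was 0.0286, the smallest that 4 against 4 samples can give. Of 9 colon epithelial markers, EPCAM, KRT8, KRT18 and CDX2 were well detected, CDH1, KRT20, MUC2 and LGR5 had no read and VIL1 at most 1 read in a sample. The summed level of the 9 was 140.4 to 151.6 CPM in the control samples and 138.0 to 146.3 CPM in the A20 siRNA samples. Of 5 fibroblast and 4 leukocyte markers 3 in each list had no read, and no marker of either list exceeded 4 reads in a sample. In 2 samples, control replicate 1 and A20 siRNA replicate 2, the sample's deviation from the mean had a trend with exonic length opposite in sign to that in the rest of their group.

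The 39 genes fell into 5 clusters of at least 2 genes and 4 genes that stood alone, when a gap of more than 1 Mb was taken to open a new cluster. ZNF138 lies at chr7:64794388-64833681 on the plus strand (GRCh38), within a cluster of 11 genes from ZNF722 to ZNF92 at chr7:63998849-65401136. The other clusters were ZNF853, ZNF316 and ZNF12 at chr7:6615610-6706947, ZNF479 and ZNF716 at chr7:57117676-57473559, 8 genes from ZNF789 to ZNF3 at chr7:99472890-100082548, and 11 genes from ZNF786 to ZNF775 at chr7:149069641-150398630. ZNF713, ZNF804B, ZNF277 and ZNF800 stood alone.

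The sequences around the transcription starts were compared with that of ZNF138, and part of its cluster resembled it. RefSeq (GRCh38.p14) gave 43 start regions for 35 of the 39 genes, each of 300 bases, with 250 before the start and 50 after it. In a global alignment the ZNF138 region was 83.3% identical to that of ZNF92, 82.0% to a second start region of ZNF273, 79.4% to ZNF107 and 79.1% to ZNF680. The start regions outside the ZNF138 and the ZNF479 to ZNF716 clusters, 28 in number, were 44.3 to 50.8% identical to it. Within the cluster ZNF117 (45.7%), ZNF735 (45.8%), ZNF679 (45.9%) and the first start region of ZNF273 (44.5%) fell in that same range, and ZNF727 (56.1%) and ZNF736 (55.3%) lay above it. In the neighbouring cluster ZNF716 reached 70.3% and ZNF479 68.8%. A few regions are shown because they set ZNF138 beside a pair of expressed neighbours and a neighbour without a read. They are those of ZNF138 (chr7:64794178-64794477, plus strand), ZNF92 (chr7:65373605-65373904, plus strand), ZNF107 (chr7:64665883-64666182, plus strand) and ZNF722 (chr7:63998599-63998898, plus strand), with CCAAT in capitals.
ZNF138: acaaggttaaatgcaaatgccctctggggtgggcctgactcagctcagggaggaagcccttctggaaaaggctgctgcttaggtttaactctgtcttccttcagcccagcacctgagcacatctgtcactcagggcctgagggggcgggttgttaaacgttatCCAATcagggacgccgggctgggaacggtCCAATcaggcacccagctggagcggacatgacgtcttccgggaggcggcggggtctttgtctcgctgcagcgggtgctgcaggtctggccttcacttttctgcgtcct
ZNF92: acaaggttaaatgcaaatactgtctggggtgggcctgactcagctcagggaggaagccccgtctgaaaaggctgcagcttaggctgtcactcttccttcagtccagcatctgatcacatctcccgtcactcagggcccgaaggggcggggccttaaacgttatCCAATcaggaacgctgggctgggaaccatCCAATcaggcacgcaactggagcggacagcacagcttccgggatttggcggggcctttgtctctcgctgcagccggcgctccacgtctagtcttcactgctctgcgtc
ZNF107: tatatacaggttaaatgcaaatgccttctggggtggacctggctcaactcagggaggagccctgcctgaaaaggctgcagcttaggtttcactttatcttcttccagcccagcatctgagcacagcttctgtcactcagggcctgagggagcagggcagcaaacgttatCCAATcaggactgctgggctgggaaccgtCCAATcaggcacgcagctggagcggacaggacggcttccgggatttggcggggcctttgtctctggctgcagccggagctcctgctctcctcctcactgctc
ZNF722: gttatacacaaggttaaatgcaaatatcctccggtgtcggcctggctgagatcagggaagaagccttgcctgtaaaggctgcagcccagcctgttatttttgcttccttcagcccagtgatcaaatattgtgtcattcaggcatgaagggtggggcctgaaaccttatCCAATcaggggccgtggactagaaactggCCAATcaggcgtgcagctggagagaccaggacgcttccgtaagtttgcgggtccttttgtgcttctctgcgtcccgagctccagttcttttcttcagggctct

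Each of these 4 regions holds CCAAT at 2 places, and at both it runs on as CCAATCAG. CCAATCAG was read on either strand in 13 of the 43 start regions of the chromosome 7 genes (30.2%) and in 3.97% of 35116 RefSeq start regions of the same length. Of the 28 start regions outside the ZNF138 and the ZNF479 to ZNF716 clusters, 3 held it. The shorter CCAAT, which every CCAATCAG contains, was in 22 of 43 (51.2%) against 34.6%. ATGCAAAT was in 7 of 43 (16.3%) against 1.77%, and TATAAA in 0 of 43 against 11.5%. All 7 regions with ATGCAAAT belonged to the ZNF138 and the ZNF479 to ZNF716 clusters. GGGCGG was in 26 of 43 (60.5%) against 45.0%. These letters were chosen after the sequences had been seen, and duplicated neighbours are not independent, so the shares are a description. Of the 6 expressed genes of the ZNF138 cluster 5 had a start region with CCAATCAG at 2 places, and of the 5 without steady reads 2 had one, among them ZNF722, whose region is 67.2% identical to that of ZNF138. ZNF736, also without steady reads, had CCAATCAG at 1 place. In the neighbouring cluster ZNF479 and ZNF716, both too low to test, each had a start region with it at 2 places. Whether these letters go with expression was not tested.

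The number of fingers differed widely between the genes. As a measure, C2H2 motifs, a pair of cysteines 2 to 4 residues apart, 12 residues, and a pair of histidines 3 to 5 residues apart, were counted in the translated main transcript of each gene. The count ranged from 0 in ZNF862 to 19 in ZNF425, with a median of 7 over the 39 genes. ZNF138 had 2 motifs in 957 coding bases. The other genes of its cluster had between 6 motifs (ZNF722 and ZNF735) and 16 (ZNF107). In a global alignment their coding sequences matched that of ZNF138 at 32.7% (ZNF107) to 66.9% (ZNF722) of positions. Gaps count among these positions, so a longer sequence scores lower, and ZNF107 has 2556 coding bases against 1152 in ZNF722. The values therefore do not rank the genes by likeness.

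Levels were compared between genes as CPM per kilobase of exon. The length was that of all annotated exons of a gene merged, which can differ from the transcripts in these cells, so close ranks are uncertain. ZNF655, whose product binds the signaling protein Vav, had the highest level at 19 CPM per kilobase, followed by ZNF800 at 18.0 and ZNF282, a repressor first found at a viral promoter, at 17.4. Across the 30 genes with enough reads to test, the highest level was 135.7 times the lowest, that of ZNF467 at 0.140 CPM per kilobase. In all, 8 genes reached 10 CPM per kilobase and 4 tested genes stayed under 1. The level of ZNF138 was 5.66 CPM per kilobase, rank 14 of 39, and 47.6% of all tested genes had a higher one. Its neighbours in that order were ZNF212 at 6.29 and ZNF316 at 5.56 CPM per kilobase. In the control samples ZNF138, at 4.9 to 5.2, lay below both ZNF316 (5.4 to 5.8) and ZNF212 (6.1 to 6.6). In the A20 siRNA samples ZNF138, at 6.0 to 6.6, lay above ZNF316 (5.5 to 5.6) and overlapped ZNF212 (6.2 to 6.3). This change of order restates the ZNF138 difference that selected the set.

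**Figure D1:**
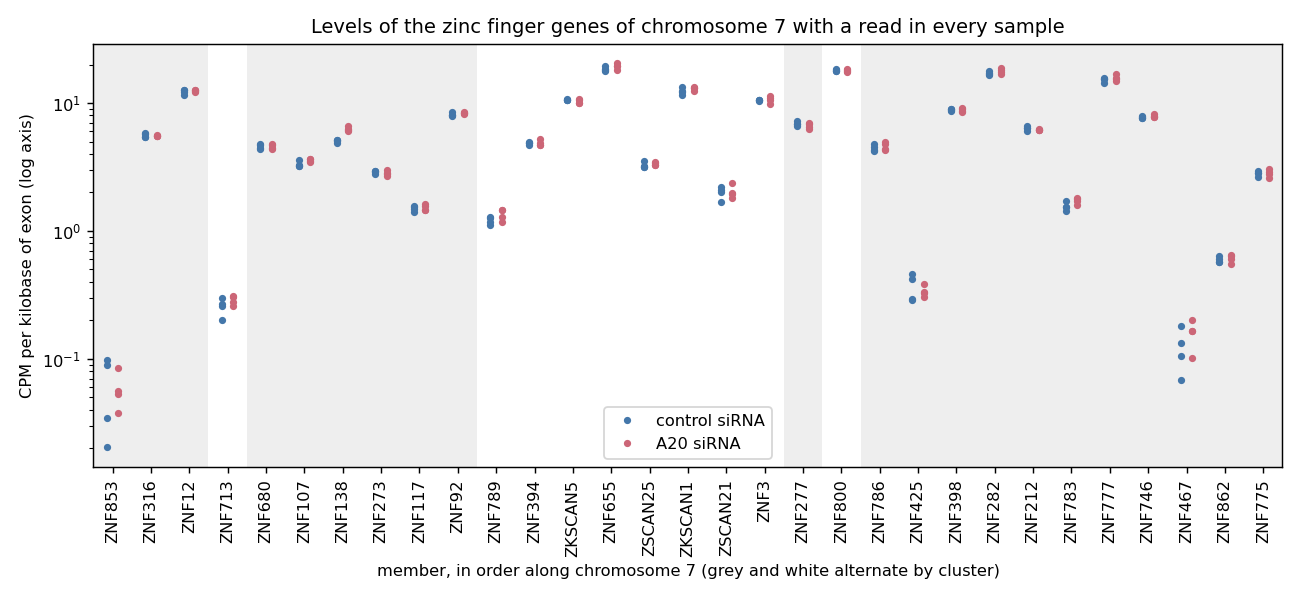
Levels of the 31 chromosome 7 zinc finger genes with a read in every sample, as CPM per kilobase of exon on a log axis, in order along the chromosome, with 1 point per sample (4 control siRNA, 4 A20 siRNA). The points of 1 gene lie close together beside the differences between genes, from ZNF853 and ZNF467 at the bottom to ZNF655 at the top, and in ZNF138 the A20 siRNA points lie above the control points.

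Of the 39 genes 9 were too low to test. ZNF716, ZNF722, ZNF735, ZNF679 and ZNF804B had no read in any of the 8 samples, which at 213244659 reads in all allows up to 0.0141 CPM on average. ZNF479 had 2 reads, ZNF727 had 1 and ZNF736 had 1 over all samples, and ZNF853 had 47, between 2 and 9 per sample. The ZNF138 cluster was thus split: from ZNF722 to ZNF736, the 5 genes at its centromeric end, at most 1 read was seen per gene, while the 6 from ZNF680 to ZNF92 had between 329 and 1418 reads in every sample. Of the 75-base windows in ZNF479 exons 34.4% occur elsewhere in the genome, so a count limited to uniquely mapped reads can miss that gene. In the tested genes that share was at most 3.11%, and in ZNF138 it was 0 of 2406 windows.

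ZNF138, for which a role as a KRAB repressor is inferred from its sequence, was higher with A20 siRNA. With control siRNA its level was 14.47, 14.76, 14.70 and 13.95 CPM in replicates 1 to 4, and with A20 siRNA 17.87, 17.40, 18.84 and 17.11 CPM. The lowest A20 siRNA sample lay above the highest control sample, and the groups did not overlap. The means were 14.5 ± 0.366 and 17.8 ± 0.756 CPM (SD, n = 4 each), from 330 to 613 reads per sample. The log2 fold change was 0.30 (SE 0.05, 95% interval 0.18 to 0.42), or 1.23-fold, and 5.82% of all tested genes had a larger change in either direction. It was lowest, at 0.27, when A20 siRNA replicate 3 was left out. Because this difference selected the set, the interval is no test of it, and the value may be too high. ZNF138 took 1.21 to 1.29% of the reads of the 39 genes in the control samples and 1.42 to 1.58% in the A20 siRNA samples. None of its exons overlaps another annotated gene. In bulk RNA, more RNA per cell and more cells with the RNA cannot be told apart.

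The start regions of the 5 expressed neighbours of ZNF138 resemble its own, except that of ZNF117 and the first of ZNF273. These 5 genes did not pass the test in either direction. Over all tested genes 1.25% passed. ZNF107 measured 40.71, 36.60, 36.42 and 36.83 CPM with control siRNA and 41.35, 38.78, 40.01 and 40.95 CPM with A20 siRNA. Only control replicate 1 reached into the A20 siRNA range, and the log2 fold change was 0.09 (SE 0.04, adjusted p = 0.242). Without control replicate 1 it was 0.14 and passed (adjusted p = 0.0297), in a fit that called 7.37% of all genes. ZNF92, the gene with the start region most like that of ZNF138, measured 27.61, 28.38, 29.63 and 28.20 CPM with control siRNA and 29.10, 29.11, 28.83 and 29.62 CPM with A20 siRNA. The highest value was a control sample, and the log2 fold change was 0.04 (SE 0.04, adjusted p = 0.694).

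ZNF680, on the opposite strand upstream of ZNF107, measured 24.65, 25.95, 26.46 and 24.35 CPM with control siRNA and 26.27, 24.10, 26.58 and 24.92 CPM with A20 siRNA. The groups overlapped throughout, with a log2 fold change of 0.01 (SE 0.04, adjusted p = 0.950). ZNF273, the next gene downstream of ZNF138, measured 23.95, 25.33, 25.38 and 24.99 CPM with control siRNA and 24.35, 25.92, 24.24 and 23.13 CPM with A20 siRNA. The A20 siRNA range enclosed the control range, and its log2 fold change was -0.02 (SE 0.04, adjusted p = 0.831). ZNF117 shares exons with the endogenous retroviral gene ERV3-1 on the same strand, so its count is less certain. The same holds for the tested genes ZNF277, ZNF655, ZNF713, ZNF775 and ZNF783. Each has exons that overlap another annotated gene on its own strand (for ZNF775 this is REPIN1). Exons of ZNF273 and ZNF862 overlap another annotated gene on the opposite strand, and the strand setting of the counting is not given in the sources used here. The means of ZNF117 were 16.1 ± 0.781 and 16.3 ± 0.920 CPM (SD, n = 4 each), and the log2 fold change was 0.02 (SE 0.05, adjusted p = 0.884). The 95% intervals of these 5 genes reached at most 0.19 (ZNF107). The difference between ZNF138 and its neighbours was not tested, since ZNF138 selected the set.

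**Figure D2:**
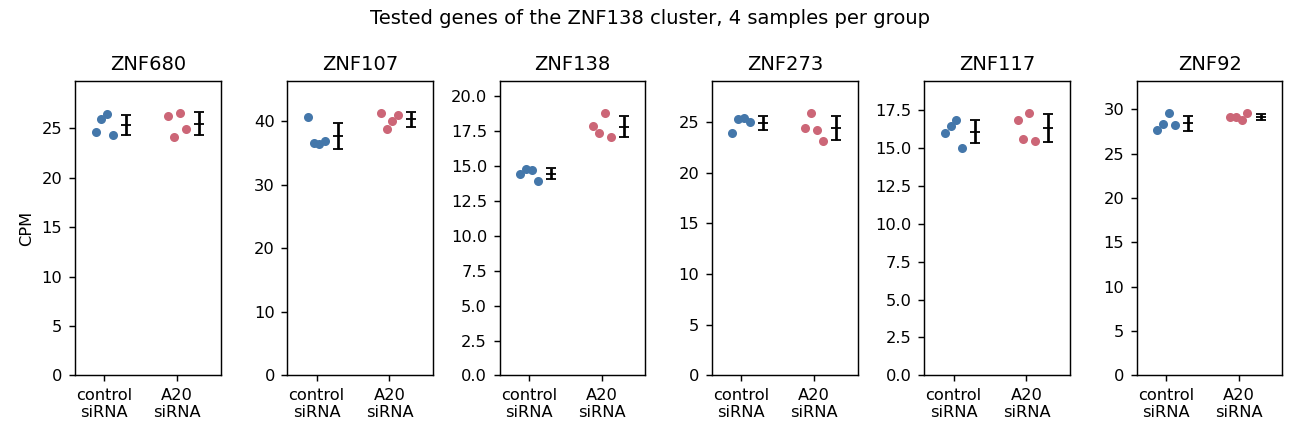
CPM of the 6 tested genes of the ZNF138 cluster in each of 4 control siRNA and 4 A20 siRNA samples (points, axes starting at 0), with mean ± SD beside them. The A20 siRNA samples of ZNF138 lie between 17.11 and 18.84 CPM, above all 4 control samples, while in the other 5 genes the groups overlap.

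In the cluster from ZNF789 to ZNF3 all 8 genes were tested and 7 had a positive log2 fold change, against 51.6% of all tested genes. None passed the test, which 1.25% of all tested genes did. ZNF655 measured 164.8, 155.3, 150.6 and 151.7 CPM with control siRNA and 162.9, 152.9, 163.4 and 172.1 CPM with A20 siRNA. The highest control sample exceeded 3 of the 4 A20 siRNA samples, and the log2 fold change was 0.06 (SE 0.03, adjusted p = 0.352). ZNF789 had the largest change of the cluster, from 8.02 ± 0.513 to 8.90 ± 0.926 CPM (SD, n = 4 each), and its log2 fold change was 0.15 (SE 0.08, adjusted p = 0.349). ZKSCAN5 was the gene with a negative value, -0.03 (SE 0.03, adjusted p = 0.665). ZNF394 overlaps both ZNF789 and ZKSCAN5 on the opposite strand, ZNF3 overlaps ZSCAN21 and FAM200A overlaps ZNF655 in the same way, and since the strand setting of the counting is not given in the sources used here, reads in the shared exons cannot be assigned with certainty.

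In the cluster from ZNF786 to ZNF775 all 11 genes were tested, and 8 had a positive and 3 a negative log2 fold change. None passed the test. Over all tested genes 51.6% were positive and 1.25% passed. ZNF783 measured 11.51, 10.41, 10.30 and 9.60 CPM with control siRNA and 11.55, 11.96, 12.08 and 10.63 CPM with A20 siRNA. Only control replicate 1 lay within the A20 siRNA range, and the log2 fold change was 0.14 (SE 0.07, adjusted p = 0.294). ZNF467, which favours fat over bone cell formation from marrow precursors, had the largest value of all, 0.37, but its SE was 0.32 and its interval -0.41 to 1.16, on 5 to 16 reads per sample (adjusted p = 0.616). ZNF425, with 25 to 46 reads per sample, had -0.14 (SE 0.18, adjusted p = 0.764). ZNF282 had a log2 fold change of 0.05 (SE 0.03, adjusted p = 0.486), ZNF746, the parkin substrate that represses PPARGC1A, 0.03 (SE 0.03, adjusted p = 0.624), and ZNF212 -0.03 (SE 0.04, adjusted p = 0.756).

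ZNF800 stands alone, and its groups overlapped throughout. It measured 103.7, 104.6, 106.9 and 103.1 CPM with control siRNA and 107.2, 101.3, 103.4 and 105.4 CPM with A20 siRNA, and its log2 fold change was 0.00 with a 95% interval of -0.07 to 0.06. ZNF12, of the first cluster, had 0.01 (SE 0.03, adjusted p = 0.872) and ZNF277 -0.06 (SE 0.04, adjusted p = 0.535). ZNF713, with 33 to 68 reads per sample, had 0.17 (SE 0.15, adjusted p = 0.631).

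**Figure D3:**
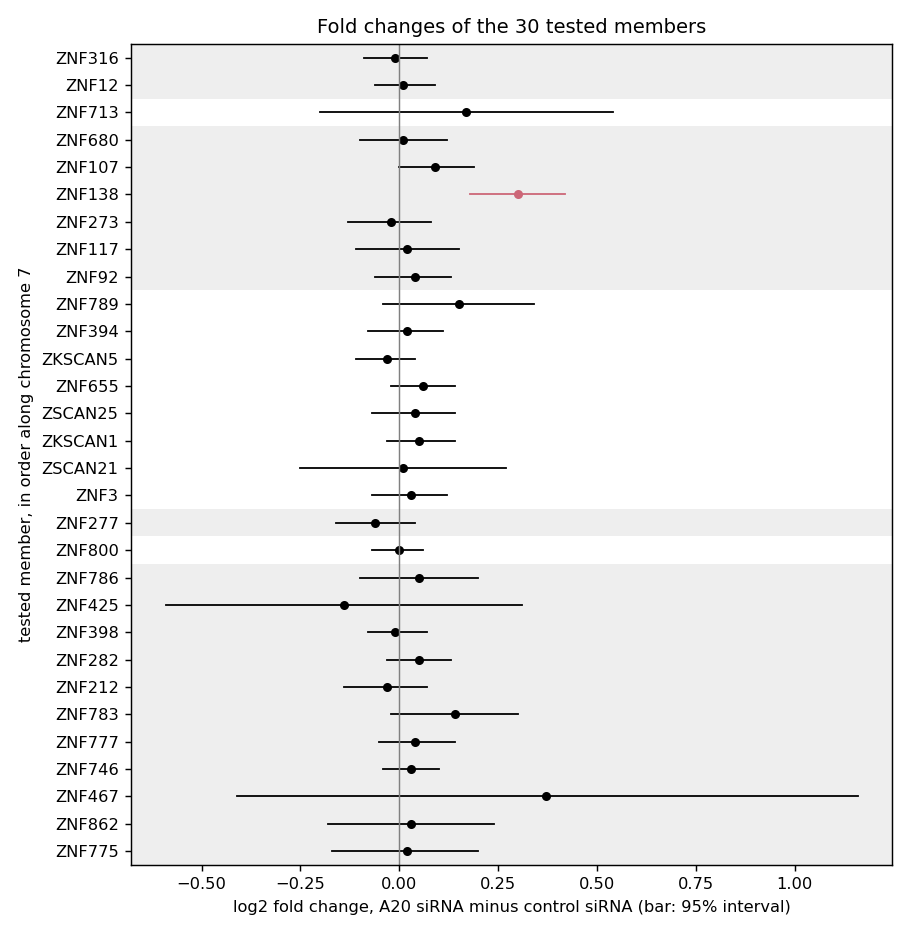
Log2 fold change (A20 siRNA minus control siRNA) of the 30 tested genes in order along chromosome 7, with 95% intervals on 6 degrees of freedom, shaded by cluster and with ZNF138 in red. ZNF138 stands at 0.30 with an interval of 0.18 to 0.42, which is no test because ZNF138 selected the set. The widest intervals belong to the genes with the fewest reads, ZNF467 and ZNF425.

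Of the 29 tested genes other than ZNF138, 0 had an adjusted p below 0.05 in edgeR's quasi-likelihood test. Among all 13412 tested genes 1.25% were called, 0.634% as higher and 0.611% as lower. DESeq2 and the fit corrected for length and GC content also called 0 of the 29, where 1.31% and 1.85% of all genes were called. At an unadjusted p below 0.05, 2 of the 29 were higher (ZNF107 and ZNF783) and 0 lower, against 8.81% and 7.37% of all tested genes. In 0 of the 29 did the groups not overlap, which occurred with the A20 siRNA samples above in 3.71% and below in 3.90% of all tested genes. ZNF138, which selected the set, is not counted here. The log2 fold changes lay between -0.1 and 0.1 in 24 of the 29. The summed level of the 39 genes was 1161 ± 19 CPM with control siRNA and 1187 ± 20.4 CPM with A20 siRNA (SD, n = 4 each).

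The signs of the small changes leaned one way. Of the 30 tested genes 22 had a positive and 8 a negative log2 fold change (73.3% positive, median 0.028), and without ZNF138 it was 21 and 8 (median 0.026). Over all tested genes 51.6% were positive, with a median of 0.003. The other protein-coding genes of chromosome 7, 508 tested, were positive in 49.4% (median -0.001). The zinc finger genes of chromosome 19 by the same symbol rule, 193 tested of 256, were positive in 77.2% (median 0.049, with 3 called higher and 0 lower). Those of other chromosomes, 201 tested of 249, were positive in 72.1% (median 0.041, with 2 called higher and 0 lower). None of these differences was tested, and the order of the 3 zinc finger groups changed with the samples used. Genes of 1 family are not independent. The median of the set is smaller than the SE of most of its genes, but that SE does not measure the error of a median. Leaving out control replicate 4 lowered the share in the set to 60.0%, below the 71.5% of chromosome 19 and the 69.2% of other chromosomes. Without control replicate 3 the share (76.7%) was above both (72.0% and 70.4%), and the median of the set, 0.037, exceeded the 0.032 of other chromosomes. Log2 fold change also had a rank correlation across genes with exonic length, of 0.18 over all tested genes and 0.063 over the 30. With length and GC content corrected, 23 of the 30 were positive (76.7%, against 51.6% of all tested genes). Without centring that correction at its median in each sample, 20 were positive (66.7%, against 41.9%).

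**Figure D4:**
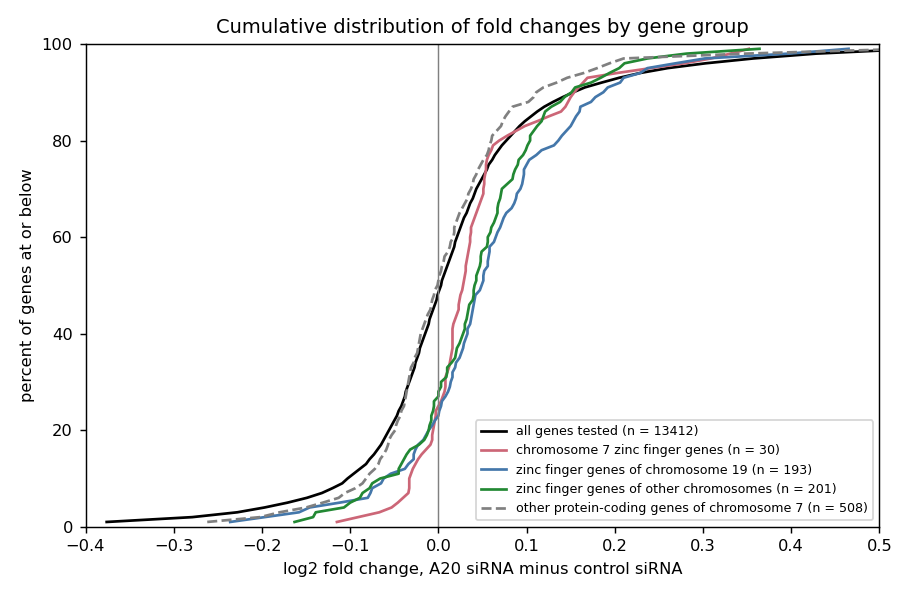
Cumulative distribution of the log2 fold change (A20 siRNA minus control siRNA) in all tested genes, in the zinc finger genes of chromosome 7, of chromosome 19 and of other chromosomes, and in the other protein-coding genes of chromosome 7; the axis is limited to -0.4 to 0.5. The 3 zinc finger curves lie to the right of that of all genes over most of their course (medians 0.028, 0.049 and 0.041 against 0.003), and the other chromosome 7 genes follow the curve of all genes.

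The partners through which KRAB zinc finger proteins silence chromatin were read from the same fit. All 16 listed genes were tested, none passed in either direction, as against 1.25% of all genes, and 10 had a positive log2 fold change (62.5%, against 51.6% of all genes, with a median of 0.014 and a range of -0.04 to 0.07). At an unadjusted p below 0.05, 2 were higher and 0 lower, against 8.81% and 7.37% of all tested genes. DESeq2 called 0 of the 16, where 1.31% of all genes were called. TRIM28, which the KRAB domain binds, measured 647 ± 14 CPM with control siRNA and 630 ± 15 CPM after knockdown (SD, n = 4 each), and its log2 fold change was -0.04 (adjusted p = 0.425). SETDB1, the histone H3 lysine methyltransferase it recruits, had 0.04 (adjusted p = 0.728). CBX5, an HP1 protein, went from 345 ± 8.87 to 362 ± 3.83 CPM, a log2 fold change of 0.07 (SE 0.02, adjusted p = 0.126), with groups that did not overlap. CBX3, another HP1 protein, had groups that did not overlap in the opposite direction, 321 ± 1.51 against 312 ± 5.93 CPM (log2 fold change -0.04, adjusted p = 0.378). Over all tested genes such groups were seen in 3.71% with A20 siRNA above and 3.90% with it below. TASOR, MPHOSPH8 and PPHLN1, which form the HUSH silencing complex, had 0.01, 0.06 and 0.01 (adjusted p = 0.856, 0.276 and 0.901).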

How the data were processed

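RNAseq counts of 8 samples of RKO cells were analysed. The authors deposited raw counts, the reads mapped uniquely to each gene, after Trimmomatic, STAR and GRCh38.p7 with a GENCODE annotation (release and strand setting are not given in the sources used here). The counts were fitted over all genes with edgeR 4.0.16 in R 4.3.3, with TMM factors, filterByExpr at a minimum count of 10 (13412 genes kept), the quasi-likelihood test without covariates and Benjamini-Hochberg adjustment at 0.05. The biological coefficient of variation was 2.73%. Symbols, positions and exons came from GENCODE release 44, matching 56948 of 57992 identifiers. CPM used the TMM factors, and levels between genes were divided by exonic length. SE came from the log2 fold change and F statistic. Floors cover counting error only.

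Genes and lists were chosen with earlier results of these data known. Named by rule were ZNF138, the tested genes of its cluster, genes with an adjusted p under 0.05, the 5 of smallest p in each direction, and in each cluster the highest level and largest change. ZNF746 was given outside this rule, and further genes were mentioned for position, sequence, level, overlap or calls in the alternatives. Marker lists were checked once, in the report. The alternatives were RLE factors, other low-count filters, DESeq2 1.42.0, limma-voom (limma 3.58.1), a replicate block, length and GC corrections, and each sample left out.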

Additional observations from a re-analysis of the deposited data

Results flagged for a closer look

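In 38 groups of 4 samples, those of each named gene and TNFAIP3 in each arm, the gap between an extreme sample and its nearest neighbour was compared with the range of the group. The gap exceeded Dixon's 95% limit in 3 groups, where chance gives about 1.9. ZNF107 in control replicate 1 was 40.71 CPM, with the other 3 control samples between 36.42 and 36.83 CPM (gap 0.904 of the range), and this sample alone overlapped the A20 siRNA samples. ZNF212 in A20 siRNA replicate 2 was 20.01 CPM, with the others between 19.65 and 19.70 CPM (gap 0.875), a difference that is small beside the level. TNFAIP3 in A20 siRNA replicate 2 was 3.008 CPM, the lowest of the group, with the others between 3.399 and 3.470 CPM (gap 0.847). The trend with exonic length was unlike that of their group in control replicate 1 and in A20 siRNA replicate 2, and its part in these values was not tested.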

How the results depend on the processing

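ZNF138 had a log2 fold change of 0.27 to 0.31 over 20 alternatives, and since it selected the set, its calls are no sign of stability. The number of chromosome 7 zinc finger genes called higher, ZNF138 included, was 1 in 17 of the 20 alternatives and 0 to 2 when 1 sample was left out, with 0 without A20 siRNA replicate 3 (0.0886% of all genes called) and 2 (ZNF107 and ZNF138) without control replicate 1 (7.37%). It was 4 (ZKSCAN1, ZNF107, ZNF138 and ZNF655) with both samples of unlike length trend left out together (8.20%), where ZNF107 had 0.15 and ZNF655 0.12. None was called lower. The median of the set stayed between 0.014 and 0.037. ZNF138 was rank 21 by CPM not divided by length. Signs turned 13 times, all at values within 0.01 of 0. ZNF800 read 0.00 with length and GC correction, with or without the block, and without A20 siRNA replicate 3, and 0.01 without control replicate 3 or A20 siRNA replicate 2, or with both unlike samples left out. ZNF680 read -0.01 without control replicates 1 or 4 or A20 siRNA replicates 1 or 3, ZNF117 -0.01 without control replicate 4 or A20 siRNA replicate 3, and ZNF12 -0.01 without control replicate 4. With 1 sample left out the ranges were -0.02 to 0.01 for ZNF800, -0.01 to 0.03 for ZNF680 and ZNF12, and -0.01 to 0.04 for ZNF117.

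Over all genes the calls moved more. Against 82 lower and 85 higher, 310 and 314 were called when no low-count filter was used, 137 and 93 with length correction, 135 and 113 with length and GC correction, and 483 and 614 without both unlike samples. Leaving out 1 sample gave 6 to 430 lower and 6 to 567 higher, with 6 each without A20 siRNA replicate 3. The trend was centred at its median in each sample, a choice made after seeing the data, and without centring 230 were lower and 90 higher. The causes were not tested. DESeq2 called 102 lower and 74 higher (42.0% higher against 50.9%). Its independent filtering was switched off after seeing the data, and with it on TNFAIP3 had no adjusted p. KRAB partners called higher were 0 to 1 when 1 sample was left out (1 without control replicate 1, where 7.37% of all genes were called). Without both unlike samples 1 was lower and 2 higher, where 8.20% of all genes were called.

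The replicate numbers are not said to mark a shared batch or day, so they were not taken to pair the samples. Same-numbered samples deviated together only weakly (correlations -0.023 to 0.105), but 5 of 8 samples correlated best with their own number. These values do not settle whether the samples were paired. With the replicate block 212 genes were lower and 262 higher (3.53% of all genes called, against 1.25% without it), and with length and GC correction as well 226 and 235. The 9 genes with few or no reads could not be tested at this depth, and ZNF467, ZNF425 and ZNF713 only loosely.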

Other observations

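Between the first and last gene of each cluster lie 19 other protein-coding genes, of which 8 were tested. Of these 4 had a positive and 4 a negative log2 fold change (median 0.006, range -0.04 to 0.59), and none passed the test. Of the 8, 1 was higher and 0 lower at an unadjusted p below 0.05, against 8.81% and 7.37% of all tested genes. Over all tested genes 51.6% were positive and 1.25% passed. The median number of C2H2 motifs was 7.5 in the 30 tested zinc finger genes of chromosome 7 and 7 in the 9 with few or no reads.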
